A study of Rattus norvegicus with 8 samples.

Results

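The Rab family of small GTPases was followed in rat hippocampus during exposure to low air pressure. Members were all sample probes whose gene name on the array is Rab with a number and an optional letter, other than Rab3a. This rule took 70 of 30367 probes, which stand for 54 genes. Of these, 52 genes passed the filter on dim probes, which asks that 1 group or more has both of its arrays well above background, and were tested among 21296 genes. Rab17 and Rab25, an endosomal and a recycling Rab of epithelial cells, were not well above background on any array and were not tested.

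Total RNA came from the hippocampus of male Sprague Dawley rats. Controls were kept in normoxia, and exposed rats were kept in a decompression chamber (hypobaric hypoxia equivalent to 25000 ft, an effective 8% oxygen). There were 4 groups of 2 single-colour Agilent arrays: normoxia, and 3 exposure times that the titles call day 1, day 3 and day 7. No allele, drug or diet is named for any group. For the longest exposure the title says day 7 while another label says 5 days, and the title's name is used. Whether both arrays of a group stand for different rats is not stated, so the p-values cover the variation among these 8 arrays alone, and that may be technical. A level is the log2 signal less the 75th percentile of its array, and a change is the difference between the mean levels of 2 groups, given ± SE (n = 2 arrays in each). A gene was called when its p-value from limma, adjusted over 21296 genes by the Benjamini-Hochberg method, was under 0.05.

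Rab proteins are molecular switches that give membranes their identity. In the GTP-bound state a Rab sits on a particular vesicle or organelle and recruits effectors, such as tethers and motor adaptors, that move, dock or fuse it. Guanine nucleotide exchange factors load GTP, GTPase-activating proteins end the signal, and GDP dissociation inhibitors carry the inactive, lipid-modified Rab through the cytosol. In neurons, secretory Rabs of the Rab3 and Rab27 subfamilies act at synaptic vesicles and dense-core granules. Rab5 and Rab7 act on early and late endosomes, and Rab4 and Rab11 return receptors to the cell surface, among them glutamate receptors at synapses.

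The arrays of a group agreed closely for these genes, with a median difference between both arrays of 0.04 on day 1, 0.05 on day 3, 0.06 on day 7 and 0.05 in normoxia over the 52 Rabs. Fewer spots were well above background in exposed groups: their share was 84.5% and 85.6% for normoxia, 80.6% and 82.1% for day 1, 75.7% for each array of day 3, and 72.6% and 77.0% for day 7. Markers of neighbouring tissue moved with the groups. The summed signal of 12 choroid plexus genes, in units of the array's 75th percentile, was 126 to 136 in normoxia, 4.35 to 4.46 on day 1, 166 to 178 on day 3 and 13.03 to 13.53 on day 7; its members Kl and Cldn2 were not well above background on any day 1 or day 7 array. For 11 striatal neuron genes the sum was 7.91 to 7.94 in normoxia, 53.4 to 54.0 on day 1, 6.59 to 6.73 on day 3 and 6.17 to 6.47 on day 7. The sum of 11 hippocampal neuron genes was 24.3 to 24.8 in normoxia, 19.8 to 20.4 on day 1, 29.5 to 30.0 on day 3 and 22.6 to 23.6 on day 7, and Prox1, the dentate granule cell marker, was not well above background on any array of day 1 or day 7. For 8 red blood cell genes the sum was 164 to 180 in normoxia, 290 to 299 on day 1, 444 to 471 on day 3 and 550 to 563 on day 7. For 8 endothelial genes it was 8.38 to 8.63 in normoxia, 26.75 to 27.25 on day 1, 22.7 to 23.6 on day 3 and 17.5 to 17.6 on day 7, and for 6 ependymal genes 2.64 to 2.67, 2.01 to 2.06, 4.17 to 4.20 and 2.83 to 2.90 in the same order. The part of these cell types in the Rab values below was not tested. In bulk RNA, fewer cells of a type and less RNA per cell cannot be told apart.

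An array reads a gene through a 60-base probe, and the probe's sequence decides which transcript, and which close relative, it can read. The probes of the sharpest falls and of the most alike pairs are therefore shown as the array files give them, with positions in the rn4 rat genome. They read 5′ to 3′ in the sense of the transcript. Probes for Rab11b (chr7:16233727-16234468, minus strand) and Rab13 (chr2:182464642-182464781, plus strand) cross a splice junction, since they span 742 and 140 genomic bases. Those for Rab40c (chr10:15147986-15148045, minus strand) and Rab3b (chr5:130283528-130283587, plus strand) lie in 1 block.
Rab11b: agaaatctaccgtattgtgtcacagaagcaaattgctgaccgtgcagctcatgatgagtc
Rab13: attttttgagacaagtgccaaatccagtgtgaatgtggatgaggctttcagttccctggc
Rab40c: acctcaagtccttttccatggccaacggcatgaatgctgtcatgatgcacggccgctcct
Rab3b: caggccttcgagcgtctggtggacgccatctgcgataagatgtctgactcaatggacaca

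Rab6a, a Golgi Rab, is read by 3 probes, of which a pair read alike stretches at chr1:158065180-158065239 and chr1:158065352-158065411 (plus strand). In human cells RAB6A is known to be spliced with either copy of a duplicated exon. The rat probe pair is identical at 47 of 60 bases, and capitals mark the 13 bases that differ.
Rab6a probe 1: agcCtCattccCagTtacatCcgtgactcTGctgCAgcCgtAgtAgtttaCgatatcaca
Rab6a probe 2: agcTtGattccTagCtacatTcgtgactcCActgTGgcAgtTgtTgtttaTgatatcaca
The other pair reads the same stretch of paralogous early endosome Rabs, with the second Rab5a probe (chr9:1492943-1499629, minus strand) and the Rab5c probe (chr10:89653453-89653946, minus strand) both crossing a junction. They match at 44 of 56 aligned bases, and capitals mark the 12 that differ. Whether transcripts of one bind the probe of the other was not tested.
Rab5a: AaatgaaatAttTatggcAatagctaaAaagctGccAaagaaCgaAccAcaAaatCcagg
Rab5c: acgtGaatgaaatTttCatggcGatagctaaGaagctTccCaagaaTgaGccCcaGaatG

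More Rab genes were called, and in both directions, as the exposure went on. Day 1 called 16 of the 52 Rabs, 9 higher and 7 lower, or 30.8% against 35.5% of all genes tested (15.3% higher and 20.2% lower). Day 3 called 31, with 17 higher and 14 lower, or 59.6% against 50.3% of all genes (24.2% higher and 26.2% lower). Day 7 called 42, with 26 higher and 16 lower, or 80.8% against 61.3% of all genes; 50% of Rabs were higher against 31.5% of all genes, and 30.8% were lower against 29.7%. These shares were not tested against each other, and the Rabs were brighter than most genes, with a median level of 0.52 against -1.88. Centring each array on its median, which moved the median of all genes by 0.15 on day 3 and 0.30 on day 7, gave 26 higher and 10 lower Rabs on day 3 and 36 higher and 12 lower on day 7. Quantile normalization gave 12 higher and 14 lower on day 3 and 20 higher and 17 lower on day 7, and cyclic loess gave 12 and 15 on day 3 and 21 and 17 on day 7. Normexp background correction gave 17 higher and 7 lower on day 3, and called 38 on day 7, 27 of them higher. The balance of rises and falls thus depends on the scaling and the background correction. On days 1, 3 and 7 the median Rab change was -0.02, 0.06 and 0.18, against -0.07, -0.05 and -0.03 over all genes; under cyclic loess the Rab medians were 0.015, -0.0008 and 0.044. On day 7 both quantile normalization and cyclic loess ended or turned the calls of Rab1, Rab1b, Rab4a, Rab10, Rab11a, Rab18, Rab20, Rab24, Rab26 and Rab38, and shrank the rises of Rab2b, Rab7l1, Rab8a, Rab12, Rab34 and Rab40b by over 1.5 times.

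On day 1 no called Rab reached 1.5-fold, and the count rested on single arrays: it was 7 and 8 without day 1 replicates 1 and 2, and 9 and 10 without normoxia replicates 1 and 2. On day 7, 16 Rabs were called with a change of at least 1.5-fold, 11 of them lower. Among those falls, Rab7b, Rab20, Rab32 and Rab39a changed sign with normexp background correction (0.07, 0.18, 0.41 and 0.29). That setting adds an offset of 50 to every signal before scaling. The 75th percentile of the signal was 2684 and 2321 on the normoxia arrays and 1407 and 1393 on those of day 7. A fixed offset thus lifts dim probes more on day 7, so normexp values of dim probes cannot decide whether they fell. The largest falls were those of Rab40c (6.41-fold, with 1 of 2 day 7 arrays well above background) and Rab11b (4.69-fold), whose order turned with normexp background correction, at -0.90 for Rab40c and -1.82 for Rab11b on the log2 scale. The largest rises were those of Rab6a (1.95-fold) and Rab33b (1.89-fold). No share over all genes was worked out for the 1.5-fold count or for the joint counts that follow, so neither can be read as particular to Rabs. On days 1, 3 and 7, 35.5%, 50.3% and 61.3% of all genes were called. Over the 3 comparisons with normoxia, which share the normoxia arrays, 46 Rabs were called at least once, 5 were higher in all 3 (Rab6a, Rab7l1, Rab28, Rab31 and Rab40b) and 3 were lower in all 3 (Rab2a, Rab5b and Rab38). Of these 8 genes only Rab31, Rab28, Rab5b, Rab2a and Rab6a kept both later calls under quantile normalization and cyclic loess. Their smaller calls rested on single arrays. The day 1 calls of Rab6a and Rab5b were lost without any 1 of the day 1 or normoxia arrays, and those of Rab7l1 and Rab40b also without either day 3 array. The day 1 calls of Rab28 and Rab31 were lost without any 1 day 1 array or 1 normoxia array (replicate 1 for Rab28, replicate 2 for Rab31). The day 7 call of Rab38 was lost without any 1 array other than day 7 replicate 1, and the day 3 call of Rab2a without day 3 replicate 2 or normoxia replicate 1 and under median centring (-0.078). Rab9b, Rab7a, Rab23, Rab33a, Rab43 and Rab6b were called in none on the probe that stood for each. Another probe of Rab9b, Rab23 and Rab6b was lower on days 3 and 7, at an adjusted p over kept probes under 0.05.

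**Figure D1:**
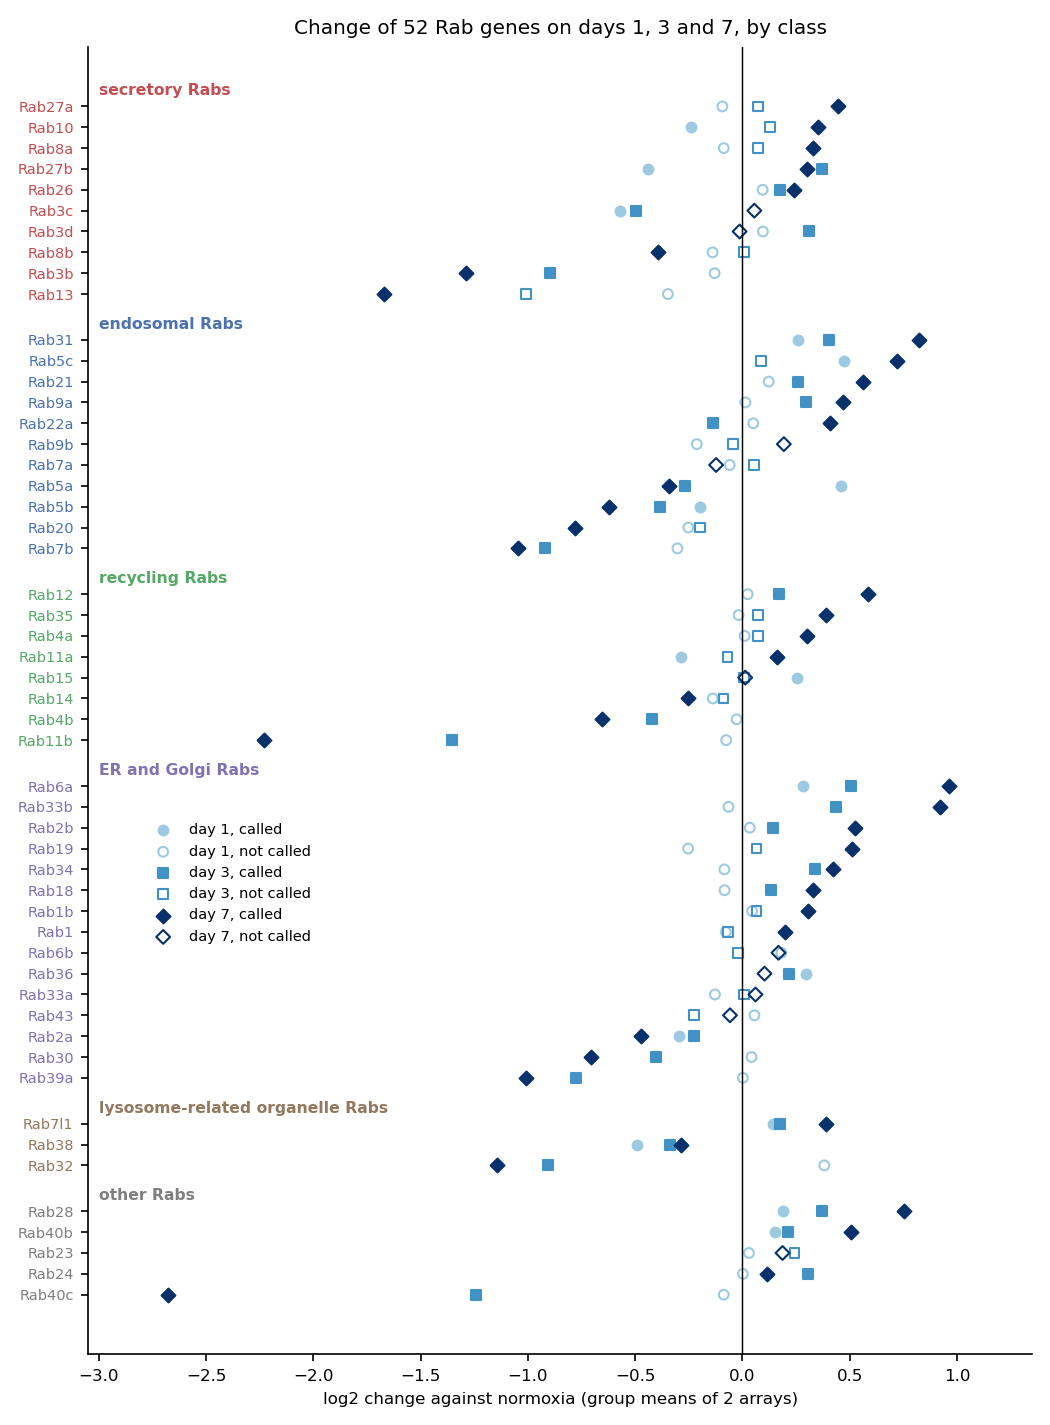
Log2 change against normoxia (x axis) of each of the 52 tested Rab genes (rows), grouped by class and ordered by the day 7 change, for day 1 (circles), day 3 (squares) and day 7 (diamonds); filled symbols were called at an adjusted p under 0.05 and open ones were not. Day 7 symbols lie farthest from 0 in most rows, from -2.68 for Rab40c to 0.96 for Rab6a, and every class holds called day 7 symbols on both sides of 0.

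Secretory Rabs carry vesicles to the plasma membrane, and 10 were tested. On day 1 none was higher and 3 were lower, with a class median of -0.13. On day 3, 3 were higher and 2 lower (median 0.07), and on day 7, 5 were higher and 3 lower (median 0.15). Their course thus differed gene by gene, and the Rab3 subfamily split.

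Rab3b, a synaptic and secretory vesicle Rab, fell late. Its levels were -0.17 and -0.13 under normoxia, -0.29 and -0.27 at day 1, -0.88 and -1.22 at day 3, and -1.42 and -1.46 at day 7. Every day 3 and day 7 array lay below both normoxia arrays, with a change of -0.90 ± 0.11 on day 3 (adjusted p = 0.002) and -1.29 ± 0.11 on day 7 (adjusted p = 0.000353, 2.45-fold). Rab3c, its close relative on synaptic vesicles, was lowest on day 1, with -1.39 and -1.44 under normoxia, -1.96 and -2.01 at day 1, -1.89 and -1.94 at day 3, and -1.34 and -1.38 at day 7. The change was -0.57 ± 0.04 on day 1 (adjusted p = 0.000853), -0.49 ± 0.04 on day 3 (adjusted p = 0.000763) and 0.06 ± 0.04 on day 7, where both arrays lay above normoxia but the gene was not called (adjusted p = 0.319). Rab3d, the Rab3 of exocrine and mast cell granules, stood at -1.39 and -1.39 under normoxia, -1.29 and -1.29 at day 1, -1.10 and -1.05 at day 3, and -1.47 and -1.33 at day 7. Only its day 3 value, 0.31, was called (adjusted p = 0.00717), and its day 7 change of -0.01 became 0.28, and called, under median centring.

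Rab27a and Rab27b dock secretory granules at the membrane and act in exosome release. Rab27a levels were -0.64 and -0.73 under normoxia, -0.79 and -0.77 at day 1, -0.57 and -0.65 at day 3, and -0.28 and -0.21 at day 7, with both day 7 arrays above every other array (0.44 ± 0.05, adjusted p = 0.00118). Rab27b had -2.91 and -3.01 under normoxia, -3.38 and -3.41 at day 1, -2.57 and -2.61 at day 3, and -2.53 and -2.79 at day 7. It fell on day 1 (-0.44 ± 0.09, adjusted p = 0.0181) and rose on day 3 (0.37 ± 0.09, adjusted p = 0.0222) and day 7 (0.30 ± 0.09, adjusted p = 0.0364). The day 1 and day 3 calls were each lost when any 1 array of the groups compared was left out, and the day 7 call was lost without any 1 of the 8 arrays other than day 7 replicate 2.

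Rab8a, Rab8b, Rab10 and Rab13 serve delivery from the Golgi and recycling endosome to the plasma membrane, among other places to cilia, growing axons and cell junctions. Rab8a levels were 1.48 and 1.44 under normoxia, 1.39 and 1.36 at day 1, 1.56 and 1.51 at day 3, and 1.80 and 1.78 at day 7. It rose on day 7 (0.33 ± 0.04, adjusted p = 0.00101). Rab8b went the other way, with 0.07 and -0.03 under normoxia, -0.10 and -0.13 at day 1, 0.04 and 0.02 at day 3, and -0.43 and -0.32 at day 7. It fell on day 7 (-0.40 ± 0.06, adjusted p = 0.00217), a change that was only -0.10 under median centring. Rab10 levels were 2.71 and 2.62 under normoxia, 2.44 and 2.40 at day 1, 2.79 and 2.80 at day 3, and 3.00 and 3.03 at day 7. It was lower on day 1 (-0.24 ± 0.04, adjusted p = 0.0109) and higher on day 7 (0.35 ± 0.04, adjusted p = 0.00123), where quantile normalization and cyclic loess each left 0.12 and ended the call. Rab13 levels were 0.25 and -1.19 under normoxia, -0.78 and -0.86 at day 1, -1.46 and -1.50 at day 3, and -2.17 and -2.12 at day 7. The normoxia arrays disagreed by more than any other pair of this family, so that the day 7 fall of -1.67 ± 0.45 (adjusted p = 0.0232) was -0.95 without normoxia replicate 1 and -2.39 without replicate 2, and it was no longer called without either one of the day 7 arrays (-1.64 and -1.70). Rab26, which recruits synaptic vesicles to autophagosomes, had 3.40 and 3.31 under normoxia, 3.45 and 3.45 at day 1, 3.51 and 3.55 at day 3, and 3.58 and 3.62 at day 7. It rose on day 3 (0.17, adjusted p = 0.028) and day 7 (0.24, adjusted p = 0.00683), a day 7 rise that became -0.01 under quantile normalization and -0.04 under cyclic loess and was not called with normexp (0.18). Its day 3 call was lost without any 1 array of day 1 or day 3 or normoxia replicate 2.

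Endosomal Rabs numbered 11. On day 1, 3 were higher and 1 lower, with a median change of 0.01. On day 3, 3 were higher and 4 lower (median -0.04), and on day 7, 5 were higher and 4 lower (median 0.19, or -0.12 when a gene's probes were averaged). The 3 Rab5 paralogs of the early endosome, which start homotypic fusion there, each took another course.

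Rab5a was high on day 1 and low after it, with -0.68 and -0.81 under normoxia, -0.23 and -0.34 at day 1, -1.03 and -0.99 at day 3, and -1.07 and -1.10 at day 7. The change was 0.46 ± 0.06 on day 1 (adjusted p = 0.00499), -0.27 ± 0.06 on day 3 (adjusted p = 0.0188) and -0.34 ± 0.06 on day 7 (adjusted p = 0.00613). The day 3 call was lost without either day 3 array or normoxia replicate 1. Its second probe, shown above beside Rab5c, gave 0.23, -0.65 and -0.82 on days 1, 3 and 7. Median centring left -0.12 on day 3 and -0.05 on day 7 and ended both calls, and normexp (-0.15) and GC correction (-0.19) ended that of day 3. Rab5b fell with time, from day 1 on, with 1.04 and 1.02 under normoxia, 0.84 and 0.82 at day 1, 0.64 and 0.66 at day 3, and 0.44 and 0.38 at day 7. Its day 7 change was -0.62 ± 0.04 (adjusted p = 0.000133), and a second probe gave -0.79 on day 7 but 0.22 on day 1, against -0.20 for the first. Rab5c was high on days 1 and 7 and near normoxia on day 3, with -1.34 and -1.35 under normoxia, -0.91 and -0.83 at day 1, -1.27 and -1.25 at day 3, and -0.68 and -0.57 at day 7. It rose by 0.47 ± 0.05 on day 1 (adjusted p = 0.00271) and 0.72 ± 0.05 on day 7 (adjusted p = 0.000227), with 0.09 ± 0.05 on day 3 (adjusted p = 0.235).

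Rab21, Rab22a and Rab31 are relatives of Rab5 that sort integrins and other cargo at early endosomes and between the Golgi and endosomes. Rab31 was the largest riser of the class, with 2.90 and 2.79 under normoxia, 3.13 and 3.07 at day 1, 3.21 and 3.28 at day 3, and 3.63 and 3.70 at day 7. Its day 7 change was 0.82 ± 0.06 (adjusted p = 0.000207). Rab21 had 1.75 and 1.71 under normoxia, 1.87 and 1.83 at day 1, 1.98 and 2.005 at day 3, and 2.27 and 2.31 at day 7. It rose by 0.56 ± 0.04 on day 7 (adjusted p = 0.000183). Rab31 and Rab21 stood higher in each group than in the one before it. Rab22a levels were 0.26 and 0.20 under normoxia, 0.31 and 0.26 at day 1, 0.11 and 0.09 at day 3, and 0.65 and 0.63 at day 7. It was lower on day 3 (-0.14 ± 0.04, adjusted p = 0.0385) and higher on day 7 (0.41 ± 0.04, adjusted p = 0.000584). The day 3 call was lost when any 1 of the 8 arrays was left out, and its value was 0.01 under median centring. Its second, upstream probe gave -0.32 on day 7.

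Among the late endosome Rabs, Rab9a rose, the dim Rab7b fell, and Rab7a and Rab9b were not called on the probe used. Rab7a, the main late endosome and lysosome Rab, stood at 0.54 and 0.51 under normoxia, 0.48 and 0.46 at day 1, 0.64 and 0.51 at day 3, and 0.42 and 0.38 at day 7 and was not called on any day (adjusted p = 0.438, 0.458 and 0.1 on days 1, 3 and 7); the 95% interval of its day 7 change runs 0.14 to either side of -0.12. Rab7b, which acts between late endosomes and the Golgi, had -5.00 and -4.96 under normoxia, -5.23 and -5.33 at day 1, -6.02 and -5.79 at day 3, and -6.20 and -5.85 at day 7, far below most Rabs. Its fall was -0.92 ± 0.14 on day 3 (adjusted p = 0.00389) and -1.05 ± 0.14 on day 7 (adjusted p = 0.00162), but -0.02 and 0.07 with normexp background correction. Rab9a, which returns mannose 6-phosphate receptors to the Golgi, had -0.76 and -0.79 under normoxia, -0.76 and -0.77 at day 1, -0.55 and -0.41 at day 3, and -0.36 and -0.25 at day 7. It rose on day 3 (0.30, adjusted p = 0.0133) and day 7 (0.47, adjusted p = 0.00188). Rab9b had -0.12 and -0.22 under normoxia, -0.36 and -0.41 at day 1, -0.22 and -0.21 at day 3, and 0.12 and -0.08 at day 7, and was not called on any day. Its upstream probe was lower on days 1, 3 and 7 (-0.32, -0.54 and -0.62, adjusted p over kept probes = 0.0152, 0.0017 and 0.000654). Rab20, a Rab of maturing phagosomes, had -4.98 and -4.93 under normoxia, -5.43 and -4.98 at day 1, -5.23 and -5.07 at day 3, and -5.75 and -5.73 at day 7. Its day 7 fall of -0.78 ± 0.15 (adjusted p = 0.00776) was 0.18 with normexp and not called under quantile normalization or cyclic loess, each at -0.40.

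Recycling Rabs numbered 8, and the class was marked by Rab11b. On day 1, 1 was higher and 1 lower (median -0.02), on day 3, 1 was higher and 2 lower (median -0.03), and on day 7, 4 were higher and 3 lower. The day 7 median of 0.09 changed sign with the scaling, to -0.06 under quantile normalization, -0.08 under cyclic loess and -0.14 with the trend in probe GC content removed.

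Rab11a and Rab11b, the paralogs of the recycling endosome, had parted by day 3, when Rab11b was called lower and Rab11a was not called. Rab11b levels were -1.10 and -1.15 under normoxia, -1.22 and -1.17 at day 1, -2.48 and -2.47 at day 3, and -3.36 and -3.34 at day 7. The 8 arrays fall into clear steps, with day 1 just below normoxia, day 3 below both and day 7 lowest. Its change was -0.08 ± 0.04 on day 1 (adjusted p = 0.185), -1.35 ± 0.04 on day 3 (adjusted p = 5.85e-05) and -2.23 ± 0.04 on day 7 (adjusted p = 1.8e-05), and the day 7 value lay between -2.25 and -1.82 under every alternative scaling, background and left-out array. Rab11a levels were 0.80 and 0.79 under normoxia, 0.50 and 0.51 at day 1, 0.70 and 0.74 at day 3, and 0.92 and 0.99 at day 7. It was lower on day 1 (-0.29 ± 0.04, adjusted p = 0.00459) and higher on day 7 (0.16 ± 0.04, adjusted p = 0.0146), and the day 7 call was lost without day 7 replicate 2 or either normoxia array, and under quantile normalization (0.06), cyclic loess (0.08) and removal of the trend in probe GC content (-0.06).

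Rab4a and Rab4b, of the fast recycling route, went opposite ways on day 7. Rab4a had 3.16 and 3.15 under normoxia, 3.15 and 3.18 at day 1, 3.26 and 3.19 at day 3, and 3.44 and 3.47 at day 7, with a rise of 0.30 ± 0.04 (adjusted p = 0.00159) that was 0.056 under quantile normalization and 0.034 under cyclic loess, called in neither. Rab4b had -0.96 and -0.89 under normoxia, -0.94 and -0.96 at day 1, -1.36 and -1.33 at day 3, and -1.59 and -1.57 at day 7. It fell on day 3 (-0.42 ± 0.04, adjusted p = 0.000907) and day 7 (-0.65 ± 0.04, adjusted p = 0.000133). Rab35, which acts in fast recycling and in neurite outgrowth, had 2.83 and 2.81 under normoxia, 2.78 and 2.83 at day 1, 2.87 and 2.92 at day 3, and 3.25 and 3.18 at day 7. It rose on day 7 (0.39 ± 0.04, adjusted p = 0.00101), by 0.15 under cyclic loess and by 0.13, no longer called, under quantile normalization. Rab12, which routes transferrin receptor from recycling endosomes to lysosomes, had 3.11 and 3.02 under normoxia, 3.09 and 3.09 at day 1, 3.27 and 3.20 at day 3, and 3.68 and 3.62 at day 7. Its rise was 0.58 ± 0.05 on day 7 (adjusted p = 0.000418), and 0.32 to 0.36 under quantile normalization, cyclic loess and GC correction. Rab14, of the endosome-to-Golgi route, had -0.84 and -0.87 under normoxia, -1.04 and -0.95 at day 1, -0.98 and -0.92 at day 3, and -1.10 and -1.12 at day 7. Its day 7 fall (-0.25, adjusted p = 0.00529) became 0.04 under median centring. Rab15, a neuronal Rab that slows endosomal recycling, had 4.27 and 4.24 under normoxia, 4.51 and 4.52 at day 1, 4.22 and 4.31 at day 3, and 4.20 and 4.34 at day 7, with a day 1 rise (0.26 ± 0.06, adjusted p = 0.0292) whose call was lost without any 1 of the day 1 or normoxia arrays; its day 7 value of 0.01 was -0.27 and -0.33, both called, under quantile normalization and cyclic loess.

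**Figure D2:**
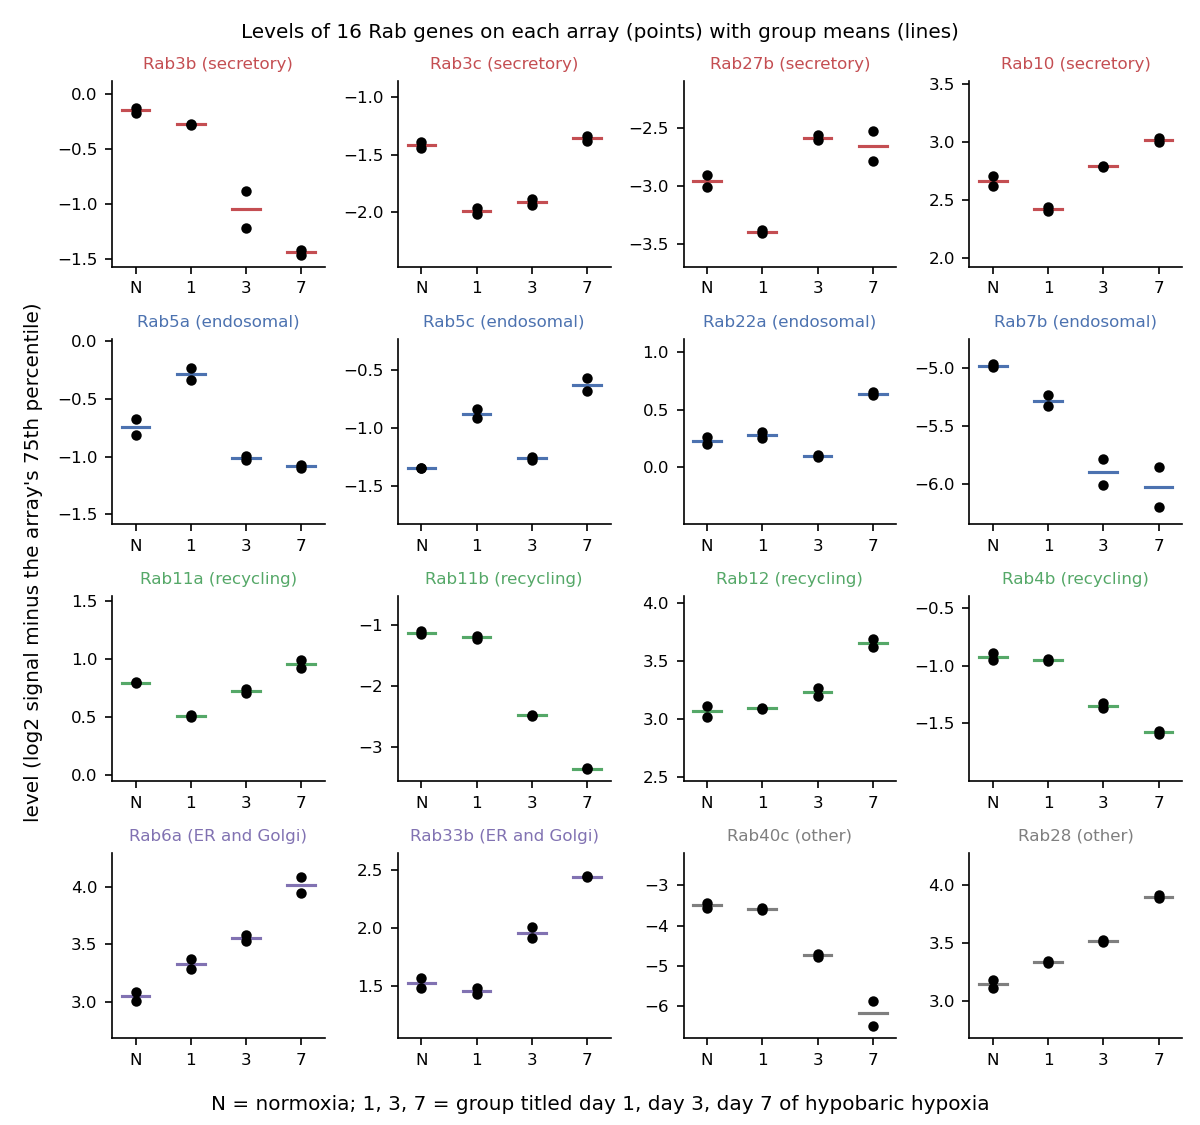
Level on each of the 8 arrays (points; y axis, log2 signal relative to the array's 75th percentile) with group means (lines) for 16 Rab genes, over normoxia (N) and the groups titled day 1, 3 and 7; the y axes differ between panels. Rab11b stands at -1.10 and -1.15 under normoxia, -1.22 and -1.17 at day 1, -2.48 and -2.47 at day 3, and -3.36 and -3.34 at day 7, while Rab6a and Rab28 stand higher in each group than in the one before.

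Side by side, the share of called genes grew from day 1 to day 7 in all 3 classes, as it did over all genes (35.5% on day 1 and 61.3% on day 7). On day 7, 8 of 10 secretory, 9 of 11 endosomal and 7 of 8 recycling Rabs were called, with medians of 0.15, 0.19 and 0.09. On day 1 the counts were 3 of 10, 4 of 11 and 2 of 8, and the secretory Rabs had the lowest median, at -0.13. No class was tested against another. In each class the day 7 range held a fall of over 1 log2 unit, led by Rab13 (-1.67), Rab7b (-1.05) and Rab11b (-2.23), and rises of up to 0.44 (Rab27a), 0.82 (Rab31) and 0.58 (Rab12).

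ER and Golgi Rabs, 15 in number, were more often higher than lower on day 7, with 8 higher and 3 lower (73.3% called against 61.3% of all genes; median 0.20, or 0.035 under cyclic loess); on day 1 it was 2 higher and 1 lower (median 0.00), and on day 3, 6 higher and 3 lower (median 0.07). Rab6a, the Rab of retrograde transport to and through the Golgi, rose at every time on its brightest probe, with 3.09 and 3.01 under normoxia, 3.29 and 3.37 at day 1, 3.53 and 3.58 at day 3, and 3.94 and 4.08 at day 7. The change was 0.28 ± 0.07 on day 1 (adjusted p = 0.0249), 0.50 ± 0.07 on day 3 (adjusted p = 0.00245) and 0.96 ± 0.07 on day 7 (adjusted p = 0.000181). Both probes of the alike pair rose as well on days 3 and 7. Probe 1 had -2.86 and -2.90 under normoxia, -2.71 and -2.67 at day 1, -1.69 and -1.58 at day 3, and -1.76 and -1.67 at day 7, a change of 1.24 on day 3 and 1.17 on day 7 (adjusted p over kept probes = 0.00017 and 8.23e-05). Probe 2 had -1.05 and -1.03 under normoxia, -1.02 and -1.05 at day 1, -0.32 and -0.39 at day 3, and -0.36 and -0.19 at day 7, a change of 0.68 on day 3 and 0.77 on day 7 (adjusted p over kept probes = 0.00108 and 0.000406). On day 1 neither was called, at 0.19 and 0.01. The difference between the probes was not tested.

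Rab33b, which binds the autophagy protein Atg16l1 at the Golgi, had 1.57 and 1.48 under normoxia, 1.48 and 1.43 at day 1, 2.01 and 1.91 at day 3, and 2.44 and 2.45 at day 7, with a rise of 0.92 ± 0.05 on day 7 (adjusted p = 0.000123); its upstream probe gave 0.07. Rab2b, an ER-to-Golgi Rab, had 2.72 and 2.68 under normoxia, 2.73 and 2.74 at day 1, 2.86 and 2.83 at day 3, and 3.25 and 3.20 at day 7. It rose by 0.52 ± 0.04 on day 7 (adjusted p = 0.00021), while its paralog Rab2a was lower on all 3 days (-0.29, -0.23 and -0.47). The other Rab2b probe gave -0.13 on day 7, and averaging the gene's probes left 0.19. Rab30, a Golgi Rab, had -2.49 and -2.48 under normoxia, -2.48 and -2.40 at day 1, -2.84 and -2.93 at day 3, and -3.21 and -3.17 at day 7. It fell on day 3 (-0.40 ± 0.05, adjusted p = 0.00218) and day 7 (-0.71 ± 0.05, adjusted p = 0.000203). Rab39a, of the endosome and phagosome route, was dim, with -5.79 and -5.86 under normoxia, -5.88 and -5.77 at day 1, -6.55 and -6.66 at day 3, and -6.76 and -6.91 at day 7. On day 7 neither array was well above background. The measured fall was 2.01-fold (means -6.84 on day 7 and -5.83 in normoxia, adjusted p = 0.000261). It is not a bound, since it rests on a signal not told from background, and normexp gave 0.29. The 9 other members of the class lay between -0.06 for Rab43 and 0.51 for Rab19 on day 7; Rab18 (0.33) and Rab1b (0.30) were 0.038 and 0.035 under cyclic loess, where Rab1, Rab6b, Rab33a and Rab36 were below 0. Under all of quantile normalization, median centring, cyclic loess and normexp, Rab43 was called higher.

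Among the remaining Rabs, Rab40c fell. Its protein is the substrate receptor of a ubiquitin ligase through a SOCS box. Levels were -3.56 and -3.44 under normoxia, -3.60 and -3.57 at day 1, -4.78 and -4.70 at day 3, and -5.86 and -6.50 at day 7. Day 1 lay just below normoxia, and days 3 and 7 lay far below it, with a change of -1.24 ± 0.21 on day 3 (adjusted p = 0.00565) and -2.68 ± 0.21 on day 7 (adjusted p = 0.000262). On day 7 the probe was well above background on 1 of 2 arrays, and normexp left -0.90. Rab40b, its paralog with the same kind of box, was called higher on all 3 days, up to 0.51. Rab28, a Rab of cilia and the photoreceptor outer segment, had 3.12 and 3.18 under normoxia, 3.35 and 3.33 at day 1, 3.51 and 3.53 at day 3, and 3.89 and 3.91 at day 7. It rose on all 3 days, to 0.75 ± 0.04 on day 7 (adjusted p = 8.73e-05); its upstream probe gave -0.46. Rab32, which acts on melanosomes and mitochondria, had -6.91 and -7.05 under normoxia, -6.55 and -6.65 at day 1, -8.20 and -7.58 at day 3, and -8.21 and -8.05 at day 7. On days 3 and 7 it was not well above background on any array. The measured means were -8.13 on day 7 and -6.98 in normoxia (adjusted p = 0.00541). Set against the lowest signal well above background, the fall was 1.22-fold, which is not a bound, and normexp gave 0.41. Its relative Rab38 was lower on all 3 days (-0.49, -0.34 and -0.29), though its day 7 value was 0.05 under cyclic loess and 0.01 under quantile normalization and median centring, and Rab7l1, now named Rab29 and known as a partner of the kinase Lrrk2, was higher (0.14, 0.17 and 0.39).

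Between consecutive groups, 29 Rabs differed on day 3 from day 1, with 15 higher and 14 lower, or 55.8% against 51.2% of all genes (28.2% higher and 23% lower). Day 7 differed from day 3 in 35, with 22 higher and 13 lower, or 67.3% against 42.4% of all genes (24.2% higher and 18.3% lower). Median centring gave 32 higher and 10 lower, and 29 higher and 4 lower. Day 3 was lower than day 1 for Rab11b (-1.28 ± 0.04, adjusted p = 5.61e-05) and Rab40c (-1.16 ± 0.21, adjusted p = 0.00704). It was also lower for Rab39a (1.72-fold as measured, adjusted p = 0.00103) and Rab32 (1.64-fold against the lowest signal well above background, adjusted p = 0.00485). Rab39a and Rab32 were well above background on no day 3 array, and normexp gave 0.084 for Rab39a and 0.15 for Rab32. Largest among its rises were Rab27b (0.81 ± 0.09, adjusted p = 0.00156), Rab33b (0.50), Rab34 (0.42) and Rab10 (0.37). Day 7 was lower than day 3 for Rab40c (-1.44 ± 0.21, adjusted p = 0.00473), Rab11b (-0.87 ± 0.04, adjusted p = 0.00035), Rab20 (-0.59) and Rab8b (-0.40); the Rab20 call was lost without any 1 of the day 7, day 3 or normoxia arrays. It was higher than day 3 for Rab5c (0.64 ± 0.05, adjusted p = 0.00117), Rab3c (0.55 ± 0.04, adjusted p = 0.00105), Rab22a (0.54) and Rab33b (0.48), of which Rab3c and Rab22a had been called lower than normoxia on day 3. The count for day 3 against day 1 rested on the day 1 arrays, at 16 and 18 without replicates 1 and 2.

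Partners of the Rabs were taken from lists of regulators and effectors. Of 44 regulators tested, 11 were higher and 10 lower on day 1, 9 were higher and 12 lower on day 3, and 14 were higher and 20 lower on day 7, with median changes of 0.02, -0.05 and -0.02. Their called shares were 47.7%, 47.7% and 77.3%, against 35.5%, 50.3% and 61.3% of all genes. Of 58 effectors tested, 13 were higher and 9 lower on day 1, 16 were higher and 18 lower on day 3, and 18 were higher and 21 lower on day 7, with medians of -0.05, -0.05 and -0.01, and called shares of 37.9%, 58.6% and 67.2%, near those of all genes. The largest day 1 rise was that of Tbc1d10c, a GTPase-activating protein known from lymphocytes, with -2.39 and -2.36 on day 1, against -4.95 and -4.85 in normoxia (2.53 ± 0.04, adjusted p = 1.83e-05). Rims2, the Rab3 effector of the synaptic active zone, rose on day 1 (0.87 ± 0.06, adjusted p = 0.000673), as did the Rab kinase Lrrk2 (0.78 ± 0.06) and Tbc1d30 (0.53 ± 0.06). These rises came in the group with the high striatal marker sum given above, whose part in them was not tested. Sytl3, a Rab27 effector, was well above background on no array of day 1 or day 7. Set against the lowest signal well above background, it was 3.97-fold lower than normoxia on day 1 (adjusted p = 0.000191). On day 7 the like fold was 2.32 (adjusted p = 0.000151). The p-values belong to the measured changes, and the folds are not bounds. Both falls are in the groups with the low choroid plexus sum, whose part was not tested, and normexp gave 0.14 on day 7. Day 1 falls also took in Tbc1d24 (-1.10 ± 0.19, not called without either one of the day 1 arrays), a TBC-domain protein of synaptic vesicle traffic, the Rab27 effector Exph5 (-0.95 ± 0.17) and Optn (-0.57 ± 0.05), a Rab8 effector and autophagy receptor.

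On day 3 the largest called falls were those of Exph5 (3.99-fold), the Rab escort protein Chml (-1.73 ± 0.41, adjusted p = 0.0195), Sytl1 (-1.58 ± 0.26) and Ankfy1, a Rab5 effector (2.15-fold). For Exph5 and Ankfy1 these are the measured folds, with a day 3 signal near background, and normexp gave 0.087 for Ankfy1. The largest rises were those of Mical1 (0.93 ± 0.07), an actin-oxidising enzyme that binds Rab35, Tbc1d1 (0.75 ± 0.05), a GTPase-activating protein for Rab8 and Rab10, the Rab27 effector Unc13d (0.73 ± 0.04) and Dennd1c (0.67 ± 0.05), an exchange factor of the DENN family that stood in the effector list. On day 7 Rabgef1, the exchange factor for Rab5, rose most, with 1.26 and 1.29 on day 7, against 0.34 and 0.36 in normoxia (0.92 ± 0.04, adjusted p = 5.9e-05). Dennd1c (0.81 ± 0.05), the dynein adaptor and Rab6 effector Bicd1 (0.81 ± 0.07) and Mical1 (0.80 ± 0.07) were next. Besides Sytl3, the largest day 7 falls were those of Rilpl1 (-1.60 ± 0.04, adjusted p = 2.65e-05), an effector of Rab8 and Rab10, the motor Myo5c (-1.52 ± 0.07) and the Rab11 effector Rab11fip1 (adjusted p = 0.00264). Rab11fip1 was well above background on neither array of day 7. Its fall was 1.67-fold against the lowest signal well above background, which is not a bound, and normexp gave 0.31.

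Probes of the same Rab gene did not always give the same answer. Targets were labelled from an oligo dT primer, per the labels' protocols, so that copying starts at the 3′ end of each transcript. For 12 Rab genes with 2 or more kept probes on the same strand, the most downstream probe, nearer that end, was set against the most upstream one. On day 7 the downstream probe had the higher change in 9 of 12 genes (75%, against 77.3% of 2685 genes over the array), with a median difference of 0.70 against 0.45. On day 3 it was also 9 of 12 (75% against 73.4%), with a median difference of 0.27 against 0.26. On day 1 it was 7 of 12 (58.3% against 48.2%), with 0.04 against -0.02. These are descriptions over genes that share their arrays, and their cause was not tested.

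Rab6b, a neuronal Golgi Rab, shows such a split. Its downstream probe, used above, had 5.70 and 5.80 under normoxia, 5.93 and 5.93 at day 1, 5.79 and 5.66 at day 3, and 5.99 and 5.84 at day 7. The probe 1600 bases upstream had 0.87 and 0.92 under normoxia, 1.00 and 1.02 at day 1, -0.02 and -0.09 at day 3, and -0.15 and -0.09 at day 7, and the fall of -1.01 on day 7 (adjusted p over kept probes = 6.59e-05) stands against 0.17 downstream. Rab28, Rab23, Rab9b, Rab22a and Rab1b likewise had an upstream probe below normoxia on day 7 (-0.46, -1.07, -0.62, -0.32 and -0.28) and a downstream probe above it (0.75, 0.19, 0.19, 0.41 and 0.39). The upstream Rab23 probe was well above background on no array of day 1, day 3 or day 7, so the size of its fall is not measured. Rab2b had the reverse split, at 0.52 upstream and -0.13 downstream. The downstream probe also had the lower change for Rab6a and Rab5a, without a split in sign. Both Rab6a probes rose (1.17 upstream and 0.96 downstream) and both Rab5a probes fell (-0.34 and -0.82). The brightest probe of a gene, which stands for it here, was the downstream one in 8 of the 12 genes. Of 7 kept Rab probes that cross a splice junction (Rab11b, Rab13, Rab14, Rab4b, Rab5a, Rab5c and Rab8b), 6 were lower on day 7, with a median change of -0.65, against 71.2% lower and a median of -0.36 for the 1834 such probes over the array. Rab probes in 1 block had a median of 0.11, against -0.05 over the array. The falls of Rab11b, Rab13, Rab14, Rab4b and Rab8b each rest on 1 junction probe.

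**Figure D3:**
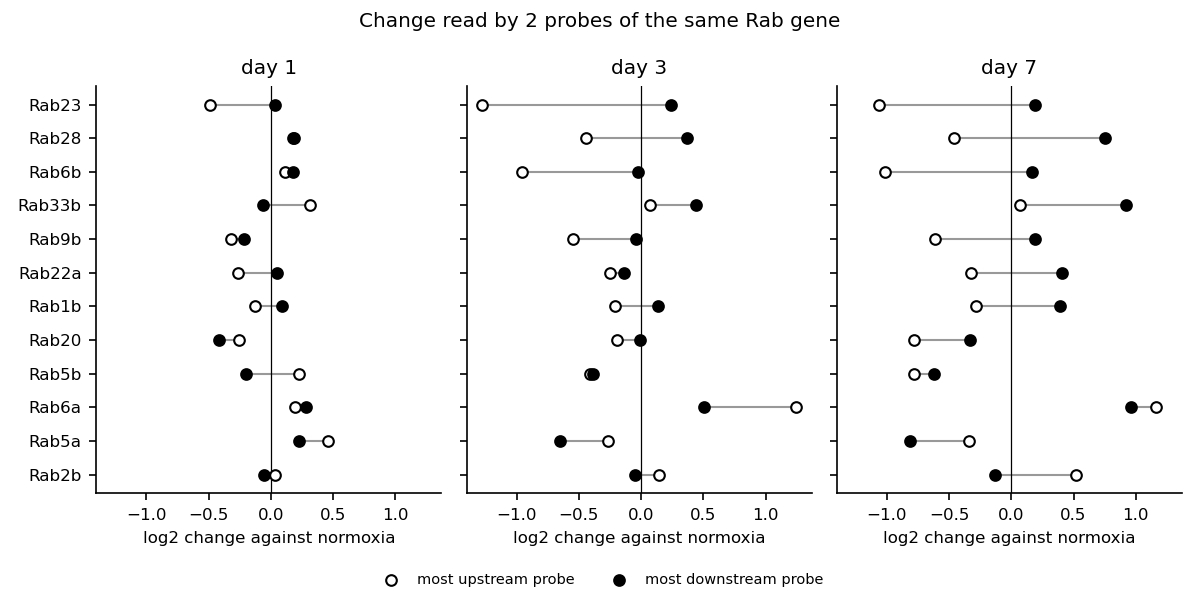
Log2 change against normoxia (x axis) read by the most upstream kept probe (open circle) and the most downstream kept probe (filled circle) of 12 Rab genes (rows), on days 1, 3 and 7 (panels), ordered by the day 7 difference. On day 7 the downstream probe lies to the right in 9 of 12 genes, by 1.18 for Rab6b and 1.25 for Rab23. The upstream probe of Rab23 was well above background on no exposed array.

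Day 7 changes also ran with the probe's base composition. Across the 52 Rabs, the day 7 change fell with the share of G and C in the probe (Spearman's rho = -0.52, against -0.24 over all genes), and it rose with the mean level (rho = 0.56, against 0.43). Genes are not independent replicates, and all points share the same 8 arrays. The probes of the 26 Rabs higher on day 7 had a median of 35.8% G and C, and those of the 16 lower had 44.2%. On day 1 the same rho was -0.03. Correction of each array for its trend in probe GC content, an alternative chosen after the data were seen, called 44 Rabs on day 7 in place of 42. Of the 4 sharpest falls, all kept their direction in that setting, at -2.47 for Rab40c, -2.12 for Rab11b, -1.56 for Rab13 and -1.08 for Rab3b. Rises moved unevenly. Rab27a went from 0.44 to 0.22, Rab10 from 0.35 to 0.13 and Rab22a from 0.41 to 0.18, while Rab1 and Rab11a turned to -0.03 and -0.06. Rab5c went from 0.72 to 0.76 and Rab4a from 0.30 to 0.41. After the correction the rho of the Rabs with probe GC was still -0.20.

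**Figure D4:**
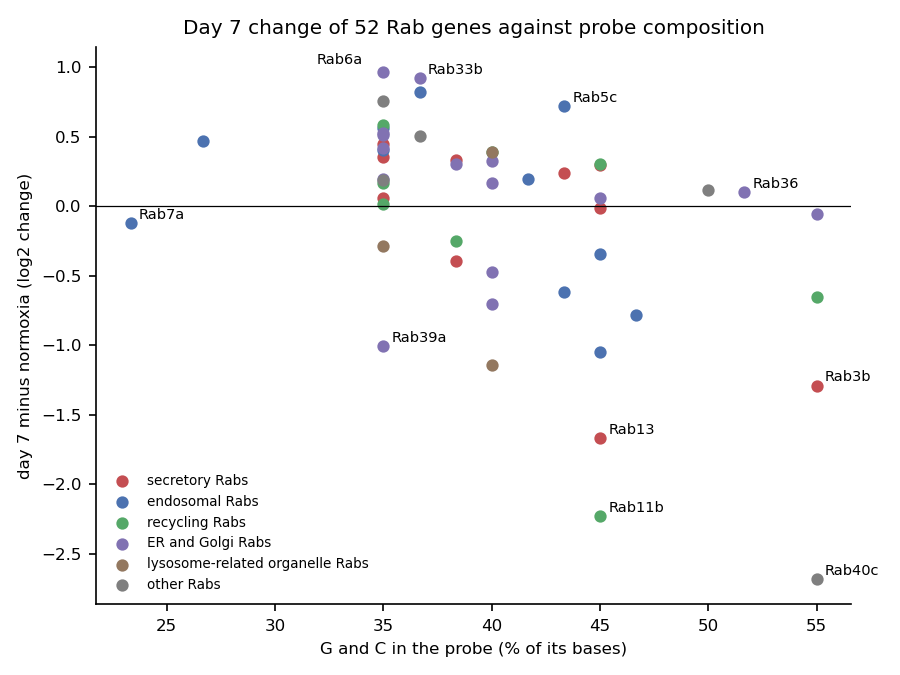
Day 7 change against normoxia (y axis, log2) against the share of G and C in the probe (x axis, %) for the 52 tested Rab genes, coloured by class. Probes with 35% G and C lie mostly above 0, while Rab3b and Rab40c, at 55%, lie at -1.29 and -2.68; Rab5c (0.72 at 43.3%) and Rab39a (-1.01 at 35%) lie off that trend.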

How the data were processed

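RNA of 8 rat hippocampus samples was hybridised to single-colour Agilent arrays (4 groups of 2). Cy3 targets were made with an oligo dT primer per the labels' protocols, and intensities were scanned and processed by Agilent Feature Extraction 11.5.1.1, per the file headers, which name the build rn4; the deposited processed intensity has background subtracted per the file headers. The deposited value table, used as an alternative, is on a log2 scale by comparison with the authors' scanner files: 96.7% to 97.4% of its values lay within 0.05 of the levels used here after removing 1 constant per array, with column medians of -3.53 to -3.23; its centring is not given in the sources used here.

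From the intensities, each level was taken as log2 of the processed signal less that array's 75th percentile, spots of a probe were averaged, and probes well above background on both arrays of a group were kept; the probe with the highest mean stood for a gene. limma 3.58.1 (R 4.3.3; lmFit, eBayes) fitted all 8 arrays with 1 mean per group and 4 residual degrees of freedom, with p-values adjusted over 21296 genes. All arrays share 1 slide and 1 scan; slide row 1 holds normoxia with day 1, and row 2 holds the later groups, so row and time cannot be told apart between these pairs. The small number of arrays limits the precision. A probe not above background on both arrays of a group has only an approximate fold there, taken against the higher of its own signal and the lowest signal well above background. That lowest signal is no upper limit for such probes, so these folds are not bounds. It was -7.29 and -7.34 on the day 3 arrays, where Rab39a was not well above background at -6.55 and -6.66. Where its own signal was the higher, as for Rab39a, Exph5 and Ankfy1, the fold is the measured one and bounds nothing. The Rabs of the secretory, endosomal and recycling classes and those with the largest changes were named, with the 4 highest and 4 lowest called partners per comparison. Members, classes and lists were chosen with earlier results of these data known. The fit was tested on simulated data with few changed genes, independent noise and no trend with probe GC or level. Such data differ from these arrays, so that test cannot vouch for the calls made here.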

Additional observations from a re-analysis of the deposited data

Results flagged for a closer look

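Several Rabs were called in opposite directions at 2 times of the exposure, and the difference between those times was tested in the same limma fit. Rab10 was higher on day 7 than on day 1 by 0.5945 (adjusted p = 0.00019), and Rab11a by 0.4504 (adjusted p = 0.000327). Rab22a was higher on day 7 than on day 3 by 0.5416 (adjusted p = 0.00089), though its day 3 call against normoxia was lost when any 1 array was left out. Rab27b exceeded its day 1 level by 0.8092 on day 3 (adjusted p = 0.00156) and by 0.7386 on day 7 (adjusted p = 0.00127). Rab5a went the other way, with differences from day 1 of -0.7277 on day 3 (adjusted p = 0.000701) and -0.8006 on day 7 (adjusted p = 0.000256). Groups of 2 arrays are too small for a search for single outlying arrays.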

How the results depend on the processing

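A fold of at least 1.5 beside the adjusted p left 0, 6 and 16 Rabs against normoxia on days 1, 3 and 7, with 8 for day 3 and 4 for day 7 against the group before, and an adjusted p under 0.01 left 6 on day 1, 19 on day 3 and 16 for day 3 against day 1. Leaving out 1 array gave 7 to 17 calls on day 1, 21 to 29 on day 3, 36 to 40 on day 7, 16 to 27 for day 3 against day 1 and 29 to 33 for day 7 against day 3, with the day 1 change of Rab13 at -1.07 to 0.37. The fit with the replicate block gave 15, 30, 42, 27 and 34 calls in these 5 comparisons. Deviations of same-numbered arrays correlated at -0.149 to 0.047. With 2 arrays in each group, this cannot settle whether the numbers pair the samples.

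Some single genes turned direction, and the cause was not tested. Under normexp these include dim probes, which its fixed offset of 50 lifts most on the arrays with the lowest signal. Averaging a gene's probes gave 0.013 for Rab5b on day 1, -0.52 and -0.44 for Rab23 and -0.035 for Rab28 on day 3 (Rab23 also on day 7), and -0.42 for Rab6b and -0.21 for Rab9b on day 7. Normexp gave on day 3 Rab20 0.26, Rab32 0.34, Rab39a 0.17, Rab43 0.19 and Ankfy1 0.087; on day 7 Rab20 0.18, Rab32 0.41, Rab39a 0.29, Rab43 0.35, Rab7b 0.072, Sytl3 0.14 and Rab11fip1 0.31; and for day 3 against day 1 Rab32 0.15 and Rab39a 0.084. Quantile normalization gave on day 7 Rab1 -0.068, Rab15 -0.27, Rab24 -0.094, Rab26 -0.0074, Rab38 0.012, Rab43 0.32 and Rab6b -0.31. Cyclic loess gave Rab18 -0.014 on day 3 and on day 7 Rab1 -0.12, Rab15 -0.33, Rab24 -0.093, Rab26 -0.043, Rab38 0.050, Rab43 0.39 and Rab6b -0.28. Median centring gave Rab22a 0.012 on day 3 and on day 7 Rab14 0.042, Rab38 0.0084, Rab3d 0.28, Rab43 0.24 and Rab7a 0.17. Removing the GC trend, chosen after seeing the data, gave on day 7 Rab1 -0.030, Rab11a -0.065, Rab15 -0.22 and Rab3c -0.17. The authors' value table gave 3.68 for Rab32 on day 7, where it was not well above background.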
